A study of Homo sapiens with 4 samples.

Results

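The cytosolic ribosomal protein genes are the genes whose proteins, with ribosomal RNA, build the ribosomes of the cytoplasm. They were chosen by symbol as protein-coding genes named RPL or RPS with a number, alone or followed by A or X, with the acidic stalk proteins RPLP0 to RPLP2 and RPSA. The rule gave 77 genes of 60617 gene IDs, 31 for the small subunit (40S) and 46 for the large subunit (60S), and it used no measured value. They lie on 21 chromosomes, with 12 on chromosome 19, 7 on chromosome 3 and 6 on chromosome 17.

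Their level in RNA was read in T24 and 5637, established lines from human bladder carcinoma, each cultured for 6 h with or without protodioscin, a steroidal saponin. The groups were T24 with 60 µM protodioscin, untreated T24, 5637 with 70 µM protodioscin and untreated 5637, with 1 library each and hence no replicate of any group. The doses are those of the sample titles; the treatment protocol gives the same figures as millimolar, and no vehicle is named for the untreated cells. Each line stands for its own tumour only, and the dose differs between the lines.

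Ribosomal protein mRNAs are among the most abundant messages of a growing cell. Most start with a C followed by a run of pyrimidines, the 5′ terminal oligopyrimidine (TOP) tract, through which LARP1 and the kinase mTOR set how strongly they are translated; this acts largely on translation and on mRNA storage, so mRNA level and protein output can part. MYC is known to drive the transcription of ribosomal protein genes and of the factors that assemble ribosomes.

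Start sites were taken from the RefSeq promoter table (GRCh38.p14), which held 62 of the 77 genes. A C at the listed first transcribed base followed by at least 4 C or T was present in 46 of the 62 (74.2%), against 5.14% of the 27305 genes in that table. The windows below run from 35 bases before the start to 15 after it, 5′ to 3′ on the coding strand, with the pyrimidine tract in capitals. They are shown for 4 of the genes with the larger treatment differences (RPS23, RPL10, RPL13, RPS26), for RPS10 and RPL36A, whose differences had opposite signs in the lines, and for 4 of the genes with large differences between the lines (RPL32, RPS6, RPL26, RPL21).
RPS23: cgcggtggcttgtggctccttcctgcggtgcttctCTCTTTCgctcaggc
RPL10: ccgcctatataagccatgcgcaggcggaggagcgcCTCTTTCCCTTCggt
RPL13: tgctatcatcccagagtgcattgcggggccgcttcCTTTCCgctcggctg
RPS26: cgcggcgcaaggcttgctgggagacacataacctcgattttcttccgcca
RPS10: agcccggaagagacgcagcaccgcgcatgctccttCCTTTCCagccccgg
RPL36A: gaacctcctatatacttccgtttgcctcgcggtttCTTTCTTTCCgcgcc
RPL32: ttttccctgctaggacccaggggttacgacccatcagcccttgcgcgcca
RPS6: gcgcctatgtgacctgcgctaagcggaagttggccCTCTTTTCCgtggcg
RPL26: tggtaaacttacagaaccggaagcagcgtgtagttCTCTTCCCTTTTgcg
RPL21: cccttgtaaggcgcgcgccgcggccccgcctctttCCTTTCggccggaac

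The windows are chr5:82278340-82278389 (minus strand) for RPS23, chrX:154398342-154398391 (plus) for RPL10, chr16:89560647-89560696 (plus) for RPL13, chr12:56041883-56041932 (plus) for RPS26 and chr6:34426055-34426104 (minus) for RPS10. Those of the other genes are chrX:101390976-101391025 (plus) for RPL36A, chr3:12841551-12841600 (minus) for RPL32, chr9:19380222-19380271 (minus) for RPS6, chr17:8383179-8383228 (minus) for RPL26 and chr13:27251523-27251572 (plus) for RPL21. RPL10 and RPL26 had the longest tracts shown, 12 bases each, and RPL13 and RPL21 the shortest, 6 bases each. RPL32 and RPS26 had no tract at any listed start, which says only that these letters do not open the transcript at those positions. RPL10, RPL13 and RPL32 have 3 listed starts each, and the other genes shown have 1. The letters CCGGAAG, which ETS family factors can bind, were sought on either strand in the 300 bases around each listed start. They occurred at any listed start in 22 of the 62 genes (35.5%), against 12.2% of all genes in the table. In 2 genes the match overlapped the tract. The letters GCCAT, any base and TT in sequence, a YY1 motif, occurred on either strand in 10 genes (16.1%), against 7.97%, and overlapped no tract.

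All 77 genes were above 1 FPKM in every library, so none was lost to a filter. FPKM counts fragments per kilobase of transcript relative to the size of the library, so it is a level per transcript length. The median level of the 77 genes was 239 FPKM in treated T24 and 235 FPKM in untreated T24, and it was 234 FPKM in treated 5637 and 218 FPKM in untreated 5637. Together they held 6.93% of the FPKM sum in treated T24 and 6.82% in untreated T24, and 5.98% in treated 5637 and 6.08% in untreated 5637. Mitochondrially encoded genes held 3.74% in treated T24, 4.50% in untreated T24, 11.9% in treated 5637 and 9.84% in untreated 5637. With those genes left out of the sum, the shares of the 77 genes were 7.20% and 7.14% in treated and untreated T24 and 6.79% and 6.75% in treated and untreated 5637. On both bases the share was higher in T24 than in 5637, and the treated and untreated shares of a line lay closer to each other than to those of the other line.

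The highest level belonged to RPS2, a 40S protein at the mRNA entrance, with 1532 and 1530 FPKM in treated and untreated T24 and 869 and 848 FPKM in treated and untreated 5637. RPLP0, the base of the stalk that recruits elongation factors, followed at 593 and 573 FPKM in treated and untreated T24 and 736 and 733 FPKM in treated and untreated 5637. RPL8, RPL35, RPS3 and RPL13A had means over the 4 libraries of 560 to 622 FPKM. These 6 genes were the highest by mean level, and RPS2 alone lay above all others in every library.

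At the low end stood RPL37A, a zinc-binding 60S protein, with 31.8 and 36.0 FPKM in treated and untreated T24 and 39.8 and 36.1 FPKM in treated and untreated 5637. RPL34 had 32.5 and 35.1 FPKM in treated and untreated T24 and 38.8 and 43.6 FPKM in treated and untreated 5637. RPS28, RPL31, RPS29 and RPS19 had means of 40.9 to 74.5 FPKM. The libraries of RPL37A, RPL34, RPS28 and RPL31 overlapped from each gene to the next in this order, and those of RPS29 and RPS19, which overlapped each other, lay above them. A ribosome holds equal amounts of nearly all these proteins, while their mRNA means ran from 35.9 FPKM for RPL37A to 1195 FPKM for RPS2. FPKM depends on how reads are divided among transcripts of unlike length. For RPL37A the shortest protein-coding one has 401 bases and the longest transcript 3647. The part of that division in the range was not tested. Across the 77 genes, mean level and principal transcript length had a Pearson r of -0.37 and a Spearman rho of -0.30 on log2 scales, a description over genes that share the same 4 libraries. Where the annotation ranked protein-coding transcripts equally, the longest was taken as principal, so its length need not be that of the main mRNA. Between T24 and 5637 the mean levels had an r of 0.92 and a rho of 0.89, also as a description.

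**Figure D1:**
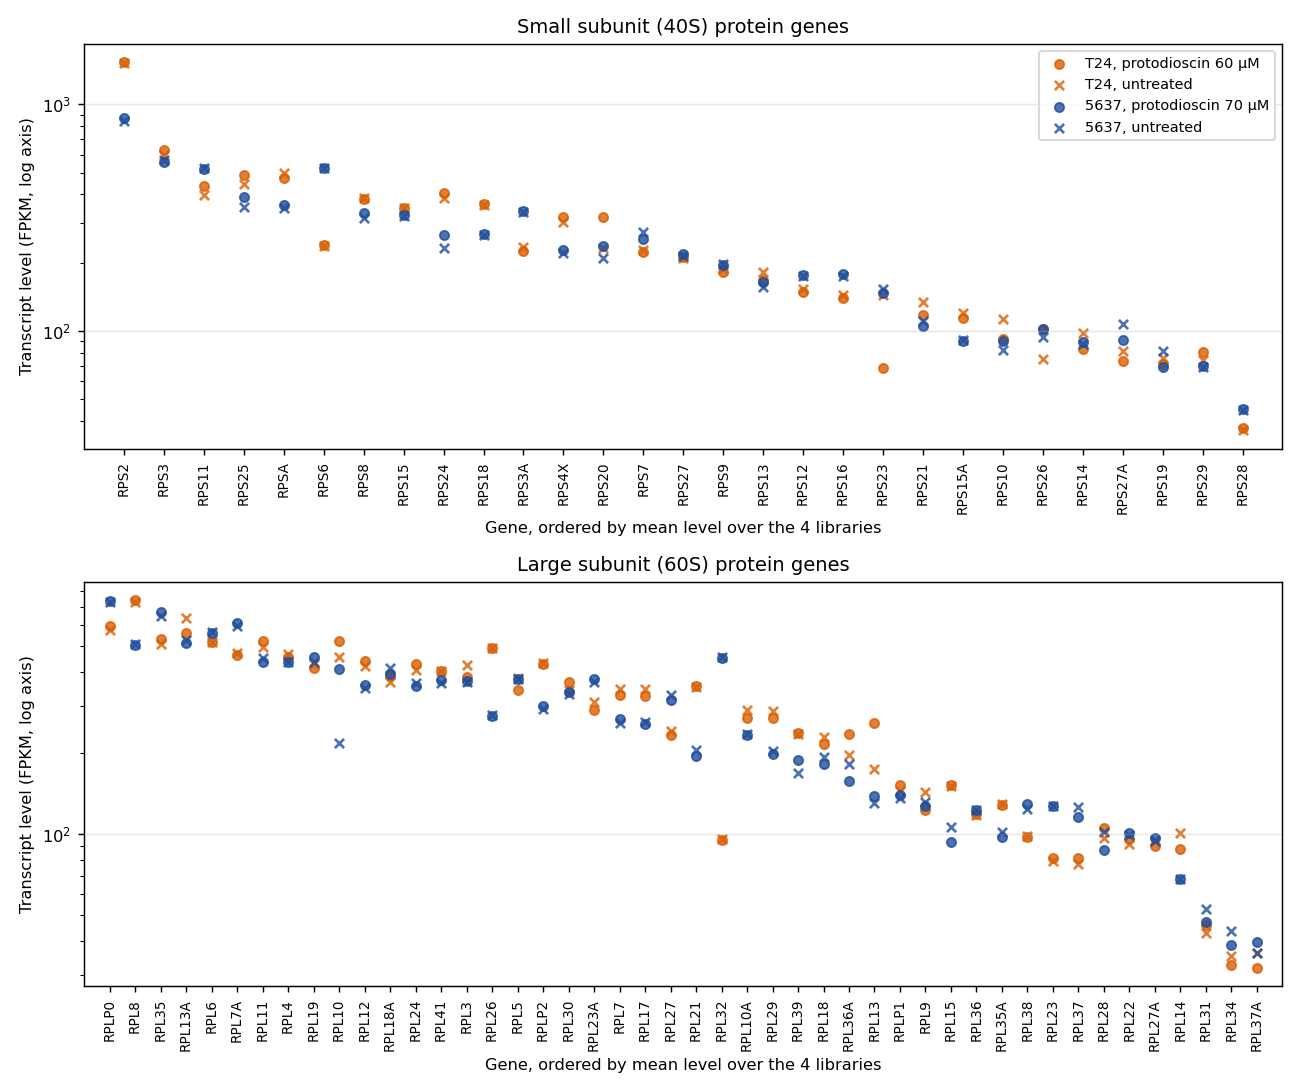
FPKM (log axis) of the small subunit genes reported here (upper panel) and the 46 large subunit genes (lower panel), ordered by mean level; circles are treated and crosses untreated libraries, orange T24 and blue 5637. RPS2 is highest in every library, RPS23 of treated T24 and RPL10 of untreated 5637 stand below their other libraries, and RPL32 and RPS6 are lower in T24.

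The lines were checked against marker genes. GATA3, a urothelial transcription factor, was present in all 4 libraries at 14.5 to 17.6 FPKM, but KRT5, CDH1 and TP63 were at or near 0 in T24 (at most 0.0232 FPKM), and at 19.2 FPKM or more in 5637. Mesenchymal markers did not share an order: ZEB1 had 8.38 and 8.46 FPKM in treated and untreated T24 and at most 0.179 FPKM in 5637, and FN1 and CDH2 were also higher in T24, but VIM had 61.4 and 68.0 FPKM in treated and untreated T24 and 267 and 304 FPKM in treated and untreated 5637. Of the epithelial markers, KRT17 was higher in T24, at 485 and 634 FPKM in treated and untreated cells, against 324 and 404 FPKM in treated and untreated 5637. Of 6 markers of other cell types, PTPRC, CD3E and HBB were at or near 0 in every library, PECAM1 reached 0.381 FPKM and CDH5 1.57 FPKM in untreated T24, and COL1A1 was highest in 5637 at 7.52 FPKM. The FPKM sums were 322821 to 348577. From the spacing of low values, treated T24 was about 1.28 times as deep as untreated T24 and treated 5637 about 0.829 times as deep as untreated 5637; absolute depth is not given in the sources used here. In bulk RNA, a change in the cells present and a change in RNA per cell cannot be told apart.

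In T24, most ribosomal protein mRNAs differed little between treated and untreated cells. The difference of log2(FPKM + 1), treated minus untreated, had a median of 0.00027 over the 77 genes, with 39 above 0 and 38 below. Of the 12193 genes compared, 56% were above 0 and their median was 0.02. Among the 1781 of them at the lowest ribosomal protein mean or more, 898 were above 0 and 883 below, with a median of 0.00094, close to that of the family. Differences within 0.1 of 0 were found for 54 of the 77 genes (70.1%), against 45.4% of all genes compared and 54.7% of the 1781 genes whose mean level reached that of the lowest ribosomal protein gene. A difference of at least 0.5 either way was found for 2 of the 77 genes, RPS23 and RPL13, against 3.26% of all genes compared and 1.97% of the genes at that mean level. RPL13 was the 1 higher, where 1.03% of all genes compared were, and RPS23 the 1 lower, where 2.23% were. With 1 library per group none of these differences within a line can be checked against replicates, and these differences carry no p-value.

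RPS23, a 40S protein of the decoding centre (ENSG00000186468, chr5:82273358-82278577, minus strand, GRCh38), had 68.8 FPKM in treated T24 and 145 FPKM in untreated T24, a difference of -1.06 on the log2 scale. In 5637 it had 148 FPKM in treated and 154 FPKM in untreated cells (-0.06). The treated T24 library thus stood alone below the other 3, at 0.476 times the untreated T24 level, and RPS23 was the sole ribosomal protein gene lower by 2-fold or more in T24, against 0.279% of all genes compared. Of the 100-base words of its principal transcript, of 3437 bases, 2.61% occur in the sense direction in transcripts of other genes. The share was not taken for its shorter transcripts. The 10 pseudogenes named after RPS23 summed to at most 0.444 FPKM in a library. ATG10, whose exons overlap RPS23 on the other strand, had 3.22 and 2.56 FPKM in treated and untreated T24. GENCODE 29 lists 8 RPS23 transcripts, the longest of 3437 bases and the shortest protein-coding one of 443 bases. FPKM depends on how reads are divided among these transcripts, a division whose part in the difference was not tested.

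RPL13, a 60S surface protein (ENSG00000167526, chr16:89560657-89566828, plus strand), had 259 FPKM in treated T24 and 175 FPKM in untreated T24 (0.56). In 5637 it had 139 FPKM in treated and 130 FPKM in untreated cells (0.09). RPL13 has 15 listed transcripts, the longest of 4498 bases and the shortest protein-coding one of 528 bases. The part of the division of reads among them was not tested. Just inside the 0.5 rule stood RPL13, and just outside it RPS20 and RPS26. RPS20, a protein of the 40S head, had 320 and 233 FPKM in treated and untreated T24 (0.46) and 236 and 211 FPKM in treated and untreated 5637 (0.17). RPS26, which lines the mRNA exit channel and is mutated in Diamond-Blackfan anaemia, a red cell aplasia, had 102 and 75.5 FPKM in treated and untreated T24 (0.43) and 102 and 93.8 FPKM in treated and untreated 5637 (0.12). For RPL13, RPS20 and RPS26 the treated library was the higher in both lines, by more in T24. Pseudogenes named after RPS26 summed to 15.1 and 11.9 FPKM in treated and untreated T24, and those named after RPL13 to 11.7 and 10.3 FPKM.

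The next largest differences below 0 in T24 were smaller. RPS10, a 40S protein near the mRNA entry, had 92.4 FPKM in treated and 113 FPKM in untreated T24 (-0.29). RPS14, RPL9, RPL14 and RPS21 had differences of -0.19 to -0.23. Above 0, RPL36A had 235 FPKM in treated and 196 FPKM in untreated T24 (0.26). Over the 40S genes the median difference was 0.0017 and over the 60S genes -0.00098, both close to 0.

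In 5637, the 77 genes also differed little between treated and untreated cells, with the exception of RPL10. Over the 12635 genes compared, the median difference was 0.04 and 61.5% were above 0. Among the 1789 of them at the lowest ribosomal protein mean or more, the median was 0.016, with 1014 above 0 and 775 below. Over the 77 genes the median was 0.0074, with 41 above 0 and 36 below. This split depended on the scaling: 17 genes were above 0 when the FPKM were rescaled to the same sum in each library (TPM) and 13 with median-ratio scaling, with medians of all genes at 0.0041 and -0.01. In each of these scalings the median of the 77 genes, -0.04 with TPM and -0.05 with median-ratio scaling, lay below that of all genes. Its sign against 0 changed with the scaling, and a direction of the family in 5637 is therefore not given. Differences within 0.1 of 0 were found for 59 genes (76.6%), against 46.8% of all genes compared and 63.6% of the 1789 genes at the lowest ribosomal protein mean or more.

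RPL10, a 60S protein that is among the last to join the subunit (ENSG00000147403, chrX:154389955-154409168, plus strand), had 410.4 FPKM in treated 5637 and 218 FPKM in untreated 5637, a difference of 0.91 on the log2 scale and a ratio of 1.88. In T24 it had 522 FPKM in treated and 457 FPKM in untreated cells (0.19). The untreated 5637 library was the low one, and the other 3 lay between 410.4 and 522 FPKM. RPL10 was the sole ribosomal protein gene at 0.5 or more in 5637, where 2.12% of all genes compared were, 1.01% higher and 1.11% lower; among genes at the lowest ribosomal protein mean or more the share was 0.671%. None of the 77 genes reached 2-fold on the log2 scale, as 0.174% of all genes compared did upward and 0.214% downward. Pseudogenes named after RPL10 summed to 19.4 and 17.0 FPKM in treated and untreated 5637. Of the 100-base words of RPL10's principal transcript, of 2318 bases, 9.28% occur in the sense direction in transcripts of other genes. The share was not taken for its shorter transcripts. DNASE1L1, on the other strand, had 4.10 and 4.13 FPKM in treated and untreated 5637. On its own strand RPL10 shares exons with SNORA70, listed at 0.0012 FPKM in both 5637 libraries. RPL10 has 18 listed transcripts, the longest of 2318 bases and the shortest protein-coding one of 292 bases. The part of the division of reads among these transcripts in the difference was not tested.

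Other differences in 5637 were smaller. Above 0, RPS24, a 40S protein mutated in Diamond-Blackfan anaemia, had 265 FPKM in treated and 232 FPKM in untreated 5637 (0.19), and RPL39, a short protein of the exit tunnel, had 189 and 169 FPKM (0.16). Below 0, RPS19, the gene most often mutated in Diamond-Blackfan anaemia, had 69.3 FPKM in treated and 81.8 FPKM in untreated 5637 (-0.24). RPS27A, made as a fusion with ubiquitin, had 91.6 and 107 FPKM (-0.22), RPL28 had 87.2 and 102 FPKM (-0.22), and RPL15 had 93.1 and 106 FPKM (-0.18). The median was 0.02 over the 40S genes and -0.0028 over the 60S genes.

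**Figure D2:**
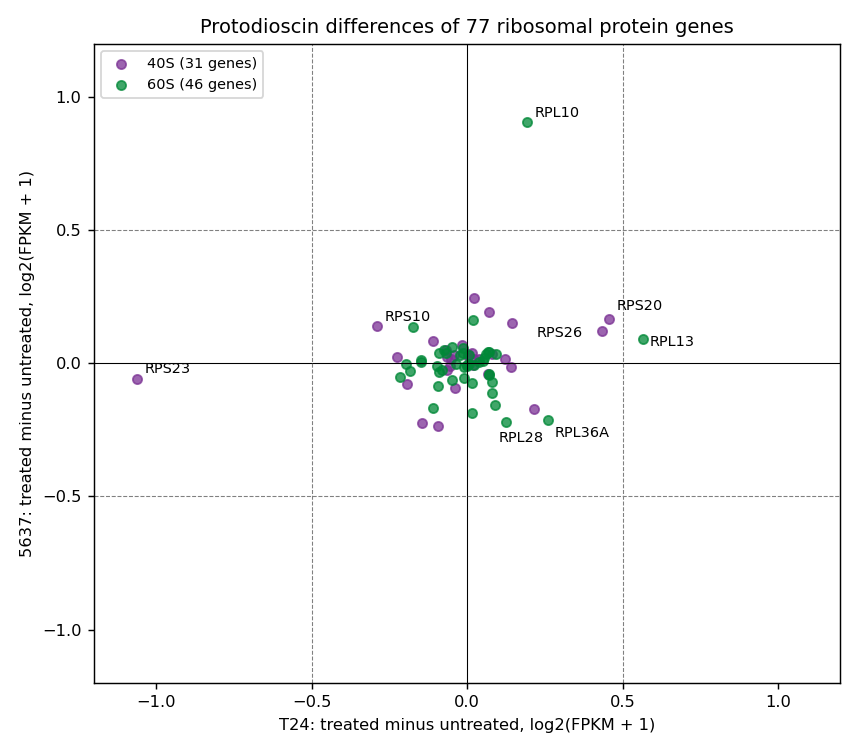
Treated minus untreated difference of log2(FPKM + 1) in T24 (x axis) and in 5637 (y axis) for the 77 genes, coloured by subunit, with dashed lines at 0.5 either way. Most points lie near the origin; RPS23 (-1.06 in T24), RPL13 (0.56 in T24) and RPL10 (0.91 in 5637) lie outside the dashed lines.

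For 5 genes (6.49%) the differences were at least 0.1 in size with opposite signs in the lines, against 10.1% of all genes, among them RPL28, RPL36A, RPL37A and RPS10. The same sign in both lines was seen for 43 of the 77 genes (55.8%), against 57.6% of the 12893 genes that reached 1 FPKM in 2 or more libraries. Across the 77 genes the differences in T24 and in 5637 had an r of 0.17 and a rho of 0.12, and an r of 0.06 and a rho of 0.04 without RPS23, RPL10 and RPL13, as a description over genes. Ranked by the smaller of their differences, the first genes among those higher in both treated libraries were RPL10, RPS20, RPS25, RPS26, RPL13 and RPS24. For RPL13 and RPS24 that smaller difference was within 0.1 of 0 (0.09 and 0.07). RPS25, a 40S protein needed for initiation at viral internal entry sites, had 489.9 and 444 FPKM in treated and untreated T24 and 391 and 352 FPKM in treated and untreated 5637. The first by the same ranking among genes lower in both were RPS27A, RPL34, RPS19, RPL18, RPS21 and RPS23. For RPS19, RPL18, RPS21 and RPS23 the smaller difference was within 0.1 of 0 (-0.09 to -0.06). RPS27A had 73.5 and 81.5 FPKM in treated and untreated T24, the same order as in 5637.

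Treatment was tested over both lines in a limma fit with line as a term, which had 1 residual degree of freedom. It called 0 of the 77 genes, and 0 of all 12893, at the adjusted threshold of 0.05. Before adjustment, 7 of the 77 (9.09%) had p below 0.05, against 9.52% of all genes, so the share was close to the background. Of these, 4 were higher and 3 lower in treated cells, where 5.58% and 3.94% of all genes were. The largest coefficients among them were those of RPS23 (-0.56 ± 0.21, SE, limma adjusted p = 0.518) and RPL10 (0.55 ± 0.16, limma adjusted p = 0.487). The others were RPS20, RPL13 and RPS26, with coefficients of 0.31, 0.33 and 0.28, and RPS27A and RPS19, with -0.18 and -0.17. RPS20 had the lowest limma adjusted p of the family, 0.482.

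Many of the 77 genes differed between the lines. The line coefficient, T24 over 5637, passed limma's adjusted p of 0.05 for 49 of the 77 genes (63.6%), against 68.9% of all genes. With no filter on low values it passed for 28 of the 77, and the share of all genes in that setting was not taken. Among the 49, the coefficient was positive for 30, 39% of the family against 35.1% of all genes, and negative for 19, 24.7% against 33.9%. None was 2-fold or more higher in T24, as 8.1% of all genes were, and 2 were 2-fold or more lower, RPL32 and RPS6, as 10.8% of all genes were. The coefficients had an SD of 0.46 over the 77 genes and of 0.995 over all genes fitted. The genes fitted needed only 1 FPKM in 2 libraries, while the lowest mean of the 77 was 35.9 FPKM. Shares and SD among genes of that level were not taken for the lines. Both libraries of T24 lay above both of 5637 for 39 of the 77 genes, against 42.4% of all genes, and below both for 28, against 40.9%.

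RPL32, a 60S protein (ENSG00000144713, chr3:12834485-12841588, minus strand), stood apart from the rest. It had 95.3 and 95.5 FPKM in treated and untreated T24, against 451 and 455 FPKM in treated and untreated 5637, so T24 held 0.211 times the level of 5637. The coefficient was -2.24 ± 0.06 (SE, limma adjusted p = 2e-06). No 100-base word of its principal transcript, of 2117 bases, occurs in the sense direction in a transcript of another gene. Its shorter transcripts were not checked in this way. The 36 pseudogenes named after RPL32 summed to 2.52 to 3.79 FPKM in a library. CAND2, on the other strand, was at 0 and 0.033 FPKM in treated and untreated T24 and at 1.88 and 1.94 FPKM in treated and untreated 5637. RPL32 has 8 listed transcripts, the longest of 2117 bases and the shortest protein-coding one of 439 bases. The part of the division of reads among these transcripts in the level was not tested.

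RPS6, the 40S protein phosphorylated by the S6 kinases (ENSG00000137154, chr9:19375715-19380254, minus strand), had 239 and 236 FPKM in treated and untreated T24, against 522 and 525 FPKM in treated and untreated 5637 (coefficient -1.14 ± 0.06, limma adjusted p = 2.4e-05). Its principal transcript shares no 100-base word with a transcript of another gene. RPL23, which can bind MDM2, had 81.3 and 79.1 FPKM in treated and untreated T24, against 127 FPKM in both 5637 libraries (-0.66). RPL37 and RPS3A had coefficients of -0.60 and -0.55. For these 5 genes the T24 libraries lay below those of 5637 with no overlap. RPS23, between RPL37 and RPS3A in size, had a coefficient of -0.59 ± 0.21 (limma adjusted p = 0.0475), a value carried by the treated T24 library: between the untreated libraries the difference was -0.09, and several other settings lost the call.

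On the other side, RPL26, a protein beside the exit tunnel, had 494 FPKM in both T24 libraries, against 275 and 277 FPKM in treated and untreated 5637 (coefficient 0.84 ± 0.06, limma adjusted p = 7.7e-05). RPS2, at the levels given above, had a coefficient of 0.83, and RPL21 one of 0.82, with 357 and 353 FPKM in treated and untreated T24, against 195 and 206 FPKM in treated and untreated 5637. RPS24 had a coefficient of 0.67. RPL13 had one of 0.66 (limma adjusted p = 0.0027), while between the untreated libraries its difference was 0.42, and with no filter on low values its adjusted p was 0.062. RPL10 had one of 0.70 (limma adjusted p = 0.0084, and 0.114 with no filter), and between the untreated libraries the difference was 1.06. The levels of RPL26, RPS2 and RPL21 were nearly the same in treated and untreated cells of a line, while those of RPL10 and RPL13 were not.

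**Figure D3:**
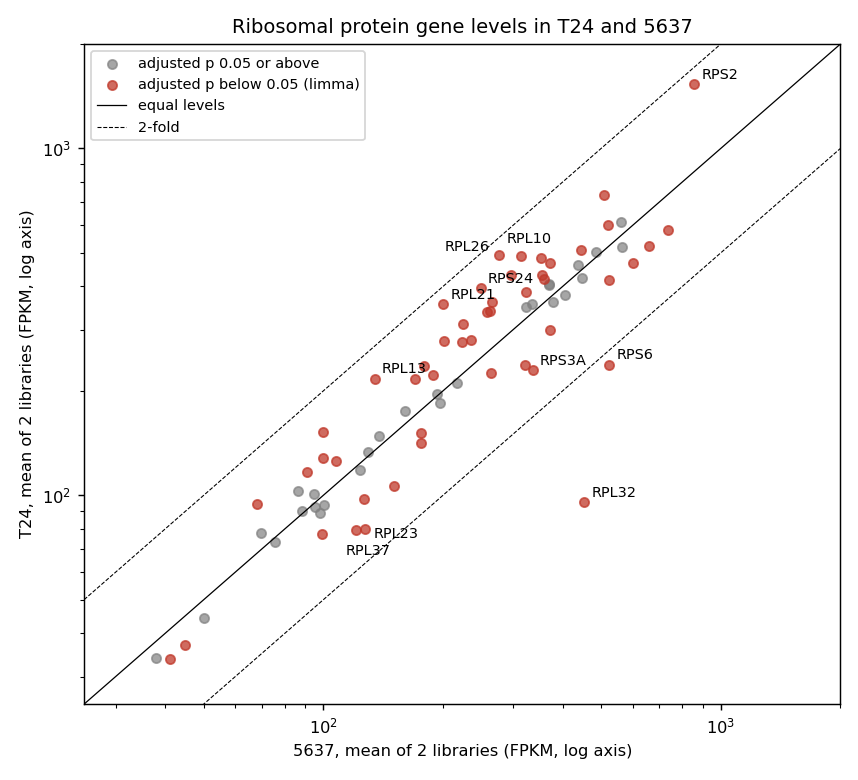
Mean of the 2 libraries of T24 (y axis) against that of 5637 (x axis), FPKM on log axes, for the 77 genes; red points passed limma's adjusted p of 0.05, and dashed lines mark 2-fold. RPL32 and RPS6 lie below the lower dashed line, with 49 genes coloured red.

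Within the ribosome, functional groups of these genes had small median differences between treated and untreated cells. The stalk proteins RPLP0, RPLP1 and RPLP2 had differences of -0.01 to 0.07 in T24 and 0.0074 to 0.04 in 5637; between the lines RPLP2 was higher in T24 (0.54) and RPLP0 lower (-0.33), both past limma's threshold. The 5S RNP proteins, which hold MDM2 when assembly stalls, are RPL5 and RPL11. RPL5 had 343 and 379.6 FPKM in treated and untreated T24 (-0.15) and 379 and 376 FPKM in treated and untreated 5637, and RPL11 had 524 and 499 FPKM in treated and untreated T24 and 438 and 450.4 FPKM in treated and untreated 5637. The 9 proteins of the tunnel exit had median differences of 0.00027 in T24 and 0.02 in 5637. The 18 genes linked to Diamond-Blackfan anaemia had medians of 0.02 in T24, with 11 above 0 and 7 below, and -0.02 in 5637, with 8 above and 10 below, beside 56% and 61.5% of all genes compared above 0 in T24 and in 5637. Other scalings were not run for these splits, which in 5637 could depend on them as that of the family did. Single genes of the 18 ranged from -0.29 (RPS10) to 0.43 (RPS26) in T24 and from -0.24 (RPS19) to 0.19 (RPS24) in 5637. Genes with a TOP tract at any listed start had medians of -0.0050 in T24 and 0.02 in 5637 (46 genes). Those without one had -0.02 and -0.0064 (16 genes), so both medians lay near 0.

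FAU encodes a ribosomal protein under another name, as a fusion with a ubiquitin-like protein. It had 215 and 221 FPKM in treated and untreated T24 and 192 and 205 FPKM in treated and untreated 5637. Among the paralogs, RPL39L, a testis-enriched copy of RPL39, had 4.87 and 4.95 FPKM in treated and untreated T24 and was listed at 0 in both 5637 libraries. RPL39 itself had 238 and 235 FPKM in treated and untreated T24, so its level was not the low one there. RPL22L1 had 5.10 and 5.74 FPKM in treated and untreated T24 (-0.14) and 5.77 and 4.18 FPKM in treated and untreated 5637 (0.39).

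Genes that act with the ribosomal proteins were read from lists of their own, chosen with earlier results of these data known. Counts on these lists are thus descriptions, and within a line they rest on 1 pair of libraries. Of 38 ribosome biogenesis factors, which process rRNA and assemble the subunits, 36 were lower in treated than in untreated T24, where 44% of all genes compared were, with a median difference of -0.15. In 5637 the count was 20 of 38, where 38.5% of all genes compared were lower, with a median of -0.00033; it was 24 of 38 with TPM (median -0.04) and 28 of 38 with median-ratio scaling (median -0.06). The count in T24 was 35 or 36 of 38 in every scaling run and 24 of 26 without genes that share exons; limma called 0 of the 38 over both lines, and whether the lines differ was not tested. NOP2, an rRNA methyltransferase, had 13.8 and 33.7 FPKM in treated and untreated T24 (-1.23) and 22.6 and 28.95 FPKM in treated and untreated 5637 (-0.34). It shares exons on its strand with ENSG00000285238, which had 8.98 and 0.952 FPKM in treated and untreated T24 and 5.90 and 3.10 FPKM in treated and untreated 5637, and the part of that sharing was not tested. RRS1, which brings the 5S RNP into the subunit, had 32.3 and 43.3 FPKM in treated and untreated T24 (-0.41), WDR43, of the early 40S precursor, had 23.1 and 30.5 FPKM (-0.39), and NOP16 had 21.5 and 27.9 FPKM (-0.36). BMS1 and HEATR3 were the 2 above 0 in T24, at 0.10 and 0.05.

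Other messages known to carry TOP tracts were read in the same way. TPT1, a growth-related protein, had 338 and 183 FPKM in treated and untreated T24 (0.88) and 523 and 400.3 FPKM in treated and untreated 5637 (0.39), with a limma adjusted p of 0.468 for treatment. EEF1A1, the main elongation factor, had 1235 and 1355 FPKM in treated and untreated T24 (-0.13) and 1044 and 1025 FPKM in treated and untreated 5637 (0.03). Of the 15 genes of that list, 9 lay below 0 in T24, where 44% of all genes compared did, with a median of -0.04. In 5637, 12 lay above 0, where 61.5% of all genes compared did, with a median of 0.03. Other scalings were not run for this list or for the regulators, and their values near 0 in 5637 could change sign with them. Among the 8 regulators, MYC had 25.5 and 42.8 FPKM in treated and untreated T24 (-0.73) and 57.0 and 67.2 FPKM in treated and untreated 5637 (-0.23). LARP1 had 86.8 and 97.2 FPKM in treated and untreated T24 (-0.16) and 75.8 and 86.5 FPKM in treated and untreated 5637 (-0.19). MTOR had 18.8 and 16.8 FPKM in treated and untreated T24 (0.15), and the list's medians were 0.09 in T24 and -0.04 in 5637. None of these genes passed limma's threshold for treatment; MYC had an adjusted p of 0.482.

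**Figure D4:**
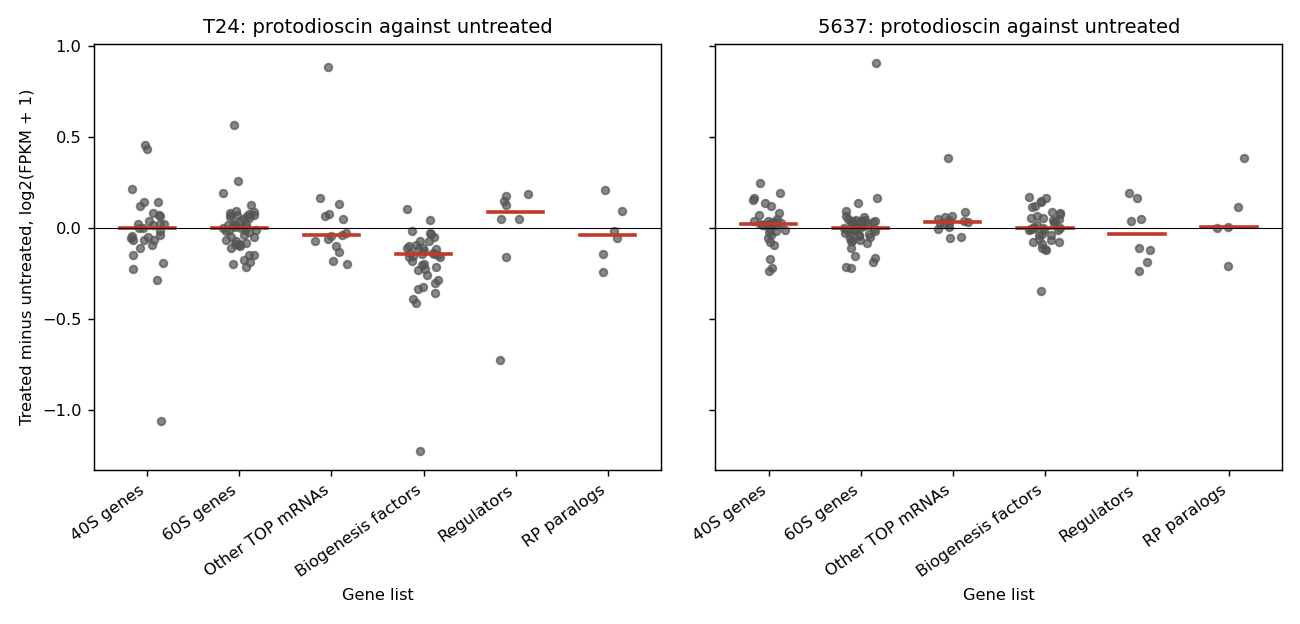
Treated minus untreated difference of log2(FPKM + 1) in T24 (left) and 5637 (right) for the 40S and 60S genes and the lists read with them; each point is 1 gene, spread sideways for legibility, and the red line is the list's median. The biogenesis factors have a median of -0.15 in T24 and of -0.00033 in 5637, while those of the 40S genes are 0.0017 and 0.02 and those of the 60S genes -0.00098 and -0.0028.

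The counting of these genes has limits of its own. Exons are shared on the same strand with another gene for 35 of the 77, and on the other strand for 29. Of the 35, 26 share exons with a snoRNA or miRNA gene and 9 with a protein-coding gene. RPL17 and RPS13 are in both counts, and RPL18 and RPS29 in neither. GENCODE 29 holds 1588 pseudogenes named after the 77 genes, at least 1 for each and 133 for RPL21; their summed level was 411 to 474 FPKM in a library, beside 20589 to 22368 FPKM for the genes themselves. Shared 100-base words were counted on the principal transcript of each gene, against transcripts of other genes in the sense direction. Words of the gene's other transcripts were not counted. For RPS23, RPL10 and RPL32 the principal transcript is also the longest listed, so the share need not hold for a shorter mRNA. Overlap with exons on the other strand is not part of these shares, although the preparation was unstranded. No such word was shared for 20 of the 77, while 12 shared 50% or more. Among these, RPS10 shared 80.6%, RPL36A 77.3%, RPS3A 66.9%, RPL21 54.5% and RPL26 53.5%, and RPS2 shared 40.1%, so the levels of these genes are uncertain where reads could be placed on a copy. Read-through genes share the exons of both. RPS10-NUDT3 differed in the opposite directions to RPS10, with 17.5 and 13.9 FPKM in treated and untreated T24 and 8.09 and 9.99 FPKM in treated and untreated 5637. RPL36A-HNRNPH2 differed in the same directions as RPL36A, with 6.99 and 1.90 FPKM in treated and untreated T24 and 3.89 and 5.51 FPKM in treated and untreated 5637. The part of this sharing in their differences was not tested.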

How the data were processed

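RNA from 4 libraries, 1 per line and treatment, was sequenced as paired reads on a HiSeq2500 after unstranded TruSeq v2 preparation, per the labels' protocols. The authors deposited FPKM per Ensembl gene; Trimmomatic, HISAT2, StringTie and GRCh38 stand in the submitters' processing notes, whereas versions, settings and the annotation release were not given in the sources used here. StringTie divides reads among overlapping transcripts by estimation.

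Deposited FPKM were analysed as log2(FPKM + 1), which understates changes of low genes, with Python 3.11.15, pandas 2.3.3 and scipy 1.17.1. Within a line, genes at 1 FPKM or more in either library were compared, with size rules of 0.5 and 1 and no test. limma 3.58.1 (R 4.3.3; trended prior, terms line and treatment) was run on the 12893 genes that reached 1 FPKM in 2 or more libraries, two-sided, with Benjamini-Hochberg adjustment, and was tested on simulated data. No label says that cultures were separate, so p-values cover the spread among 4 libraries only, which may be technical. GENCODE 29 gave gene types, positions and, with bedtools 2.31.1, exon overlap. Named genes are the 6 largest by difference in each direction and line, in both lines and between lines, the 6 highest and lowest by level, all past a threshold, and genes of the lists. Members and lists were chosen with earlier results of these data known. Alternatives were pseudocounts of 0.1 and 5, no filter or one at 5 FPKM, TPM, median-ratio and quantile scaling, a constant prior variance, and leaving out genes that share exons. Values of some genes are not reported here.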

Additional observations from a re-analysis of the deposited data

Results flagged for a closer look

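For 5 of the 77 genes (6.49%, against 10.1% of all genes) the treated library differed from the untreated one by at least 0.1 on the log2 scale in opposite directions in the lines, with 1 library per group. The differences between the lines were not tested, since no degree of freedom is left for them. RPL28 had a difference of 0.12 in T24 and -0.22 in 5637, and RPL36A one of 0.26 in T24 and -0.21 in 5637. RPL37A had -0.18 in T24 and 0.14 in 5637, and RPS10 had -0.29 in T24 and 0.14 in 5637. RPL36A and RPS10 share exons with read-through genes, and RPL37A is the lowest of the 77 genes by mean level.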

How the results depend on the processing

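No called value changed sign under an alternative; the median difference of the 77 genes in 5637, 0.0074, was -0.04 with TPM and -0.05 with median-ratio scaling. Limma called 49 of the 77 genes between the lines (63.6%, against 68.9% of all genes), 28 with no filter, and 27 of 42 without the genes that share exons. The share of all genes called in these other settings was not taken, so these counts are not read as a result about the family. In 5637, 41 genes lay above 0, against 17 with TPM, 13 with median-ratio scaling and 22 of 42 without exon-sharing genes. Of all genes compared, 61.5%, 50.9%, 46.6% and 61.8% lay above 0 in these settings, in this order. Among those 42 genes, 31 lay within 0.1 of 0 in 5637 and 32 in T24. In T24, 21 of the 42 lay above 0, where 56.4% of all genes compared did. A difference of 0.5 was reached by 1 in T24 and 0 in 5637, against 2.52% and 1.66% of all genes compared. Here fewer genes are counted. The shares of the FPKM sum without mitochondrially encoded genes were 6.79% and 6.75% in treated and untreated 5637. The line call of RPS23 was lost in 6 settings, with adjusted p of 0.0573 to 0.257, and those of RPL10 (0.114) and RPL13 (0.062) with no filter; the cause was not tested. The comparison of genes as abundant as the lowest ribosomal protein gene was added after seeing the data.

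Treated and untreated cells were matched by line, as a term of the limma fit; without that term limma called 0 of the 77 genes for treatment, and 0 had an unadjusted p below 0.05, against 0 and 7 with it. No paired analysis by replicate number was possible because the labels give none and each group has 1 library. Leaving out a library was not run as a test, since 3 libraries leave no residual degree of freedom. Differences of single genes within a line rest on 1 pair of libraries, whose depth differed.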
